A study of Mus musculus with 16 samples.

Results

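The cytosolic ribosome is built from ribosomal RNA and the proteins of the genes described here, whose mRNAs are among the most abundant in most cells. They were read in whole ovary and whole kidney of mice given PT-2385, a small molecule that binds HIF-2α and keeps this hypoxia-inducible transcription factor from pairing with its partner ARNT. Members were the protein-coding genes whose symbol starts with Rpl or Rps and a digit, or is Rpsa or Rplp0, without the Rps6k kinases and without pseudogenes. This gave 84 of the 55359 genes in the count files. They fall into 31 proteins of the small subunit, 44 of the large subunit, 7 paralog copies (Rpl3l, Rpl10l, Rpl22l1, Rpl36al, Rpl39l, Rps27l and Rps27rt) and 2 genes, Rps19bp1 and Rpl7l1, whose products carry such a symbol but are not structural parts of the ribosome. Another 6 genes are coding by biotype but pseudogenes by symbol and were left out. The symbol rule also misses some genes of cytosolic ribosomal proteins, of which Rplp1, Rplp2, Fau and Rack1 are given apart.

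The 4 groups, with 4 libraries each, were ovary with PT-2385, ovary with vehicle, kidney with PT-2385 and kidney with vehicle. All animals were wild-type CBAF1 females, 21 days old. PT-2385 was given at 7.5 mg/kg, and vehicle as 5% DMSO in saline, by intraperitoneal injection at 12 h intervals through 4 days. All groups, the vehicle groups included, also received PMSG (5 IU), which makes follicles grow, and 48 h later hCG (5 IU), which triggers ovulation, with collection 13 h after that. The labels do not state whether the 4 libraries within a group are from different animals, so every p-value here measures the spread between these samples, which may be technical. The whole kidneys and ovaries hold many cell types, and a drug given to the whole animal does not show in which of them a change arose.

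The small subunit decodes the mRNA, and large-subunit proteins surround the site where peptide bonds form and the tunnel through which the new chain leaves. Most vertebrate ribosomal protein mRNAs begin with a C followed by a run of pyrimidines, the 5′ terminal oligopyrimidine tract, through which mTOR signalling and the RNA-binding protein LARP1 set how much of the mRNA is translated. Counts of mRNA do not read that step. In mammals the genes have left many processed copies in the genome, of which few are expressed.

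The promoter windows below show pyrimidine runs near the annotated start, not always at it, in members on which the results turn, including Rps27 and its intronless copy Rps27rt. Each line gives 30 bases before and 30 bases from the annotated start of transcription (RefSeq, GRCm38.p6), read on the gene's own strand. Capitals mark the longest run of a C followed by at least 6 bases that are each C or T, searched from 20 bases before the start.
Rps27 (chr3:90213619-90213678, minus strand): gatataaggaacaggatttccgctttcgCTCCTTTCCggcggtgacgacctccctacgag
Rps27rt (chr9:114982710-114982769, minus strand): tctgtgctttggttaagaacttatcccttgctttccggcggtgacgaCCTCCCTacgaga
Rps12 (chr10:23787180-23787239, minus strand): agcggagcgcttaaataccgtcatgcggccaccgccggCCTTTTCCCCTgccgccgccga
Rpl13a (chr7:45128716-45128775, minus strand): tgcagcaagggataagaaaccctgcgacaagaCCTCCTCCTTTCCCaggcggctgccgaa
Rps10 (chr17:27635215-27635274, minus strand): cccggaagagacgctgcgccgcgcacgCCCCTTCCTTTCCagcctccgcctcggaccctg
Rpl22l1 (chr3:28805478-28805537, plus strand): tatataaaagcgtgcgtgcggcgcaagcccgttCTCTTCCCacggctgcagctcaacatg
Rps26 (chr10:128626477-128626536, minus strand): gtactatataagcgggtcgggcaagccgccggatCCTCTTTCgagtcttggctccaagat
Rps19bp1 (chr15:80264277-80264336, minus strand): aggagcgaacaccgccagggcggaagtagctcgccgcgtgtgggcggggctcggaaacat

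Rps19bp1, one of the genes that is not a structural ribosomal protein, had no such run in this window, and Rpl13a had the longest of those printed (14 bases). The first 38 transcribed bases of Rps27rt were identical to those of Rps27 at a shift of 1 base. Before the start, 8 of 50 bases matched at that shift. RefSeq promoters were found for 65 of the 84 members. A run of this kind, between 20 bases before and 50 bases after the start on the transcribed strand, lay in 50 of the 65 (76.9%), against 32.9% of the 27025 genes with a promoter in the table. The sequence CCGGAAG, a core bound by ETS-family factors, stood on either strand of the 300-base promoter in 25 of 65 (38.5%), against 9.93% of all genes. AAGATGGC, which YY1 can bind, stood on either strand in 6 of 65 (9.23%), against 3.19% of all genes. These are matches of letters in annotated windows, and a gene with several annotated starts was counted once if any of them matched.

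Libraries held between 12.7 and 43.3 M assigned read pairs (1 M is 1e6), both extremes in kidney with PT-2385, and the members took 210511 to 1145817 of them. Ovary markers summed to 1293 to 1735 CPM (counts scaled to 1e6 per library) in ovary and 4.1 to 5.88 CPM in kidney, and kidney markers to 25.0 to 73.9 CPM in ovary and 18528 to 21380 CPM in kidney. Of the kidney markers in ovary, Aqp2, the water channel of the collecting duct, had 31.7 to 33.2 CPM with PT-2385 and 16.5 to 23.8 CPM with vehicle. The androgen-regulated Kap of the proximal tubule had 33.9 CPM in ovary vehicle replicate 1 and at most 0.806 CPM in the other 7 ovary libraries. Slc34a1, the phosphate carrier of the same tubule, had 10.9 CPM there and at most 0.101 CPM in the others. Aqp2 did not go with them, as that library had the lowest Aqp2 of the ovary libraries, 16.5 CPM. The part of these RNAs in the members' values was not tested. Ovary vehicle replicate 3 stood apart: its 5 nuclear noncoding RNAs summed to 1366 CPM, against 2370 to 3843 CPM in the other 7 ovary libraries. Its file also bears the number 5, while the labels call it replicate 3, and the file of kidney PT-2385 replicate 3 bears another flow-cell code than its group. Both were kept in the labelled groups, and ovary counts that rest on vehicle replicate 3 are given with and without it. A median of 45.2% of the 100-base stretches of a member's transcripts also occurred in a transcript of another gene, and in 38 of 84 members this was over 50%. Read pairs that match several places are left out by the counting default, so members with near-identical copies are undercounted by an unknown amount. Reads assigned to the 301 annotated ribosomal protein pseudogenes made up 0.0819% to 0.0926% of ovary libraries and 0.0408% to 0.0495% of kidney libraries.

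Level per length was given as TPM, which scales counts by the length of each gene's principal transcript and then by the library's total. In ovary the highest member was Rpl41, which encodes the shortest ribosomal protein, with 4551 ± 736 TPM (mean ± SD, n = 8 libraries of both treatments). It was also the highest in kidney, with 1428 ± 66.3 TPM. Next in ovary came Rps12 with 3732 ± 540 TPM, Rpl32 with 2196 ± 221 TPM, Rpl17 with 2195 ± 308 TPM and Rps9, which lies near the mRNA entry channel, with 1934 ± 66.3 TPM. Rpl32, Rpl17 and Rps9 did not differ beyond their spread. In kidney the order after Rpl41 was Rps15, a protein of the head of the small subunit, with 1098 ± 90.6 TPM, Rpl7a with 1009 ± 48.4 TPM and Rpl10, which sits near the peptidyl transferase centre, with 922 ± 25.9 TPM.

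At the low end of the structural genes stood 3 whose exons overlap an annotated gene model on the same strand. Rpl24 had 0.983 ± 0.205 TPM in ovary and 1.08 ± 0.616 TPM in kidney, from 151 counts in all 16 libraries together. Rps10 had 5.93 ± 1.09 TPM in ovary and 3.99 ± 1.08 TPM in kidney, from 514 counts. Rpl13a, which can leave the ribosome and repress mRNAs of inflammation, had 111 ± 6.84 TPM in ovary and 25.3 ± 3.71 TPM in kidney. The overlapping models share 71.5% of the exon bases of Rpl24 (Gm28037), 38.8% of Rps10 (RPS10-NUDT3) and 54.9% of Rpl13a (Gm45713). All 3 of these models were listed at 0 in every library. Pairs that fall on 2 gene models are left out by the counting default. How far this lowered these levels, and with them the place of these genes among the structural genes, was not tested. Another such gene is the paralog copy Rpl36al (Gm49383, 24.5% of exon bases), with 4.08 ± 0.904 TPM in ovary and 1.35 ± 0.476 TPM in kidney.

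**Figure D1:**
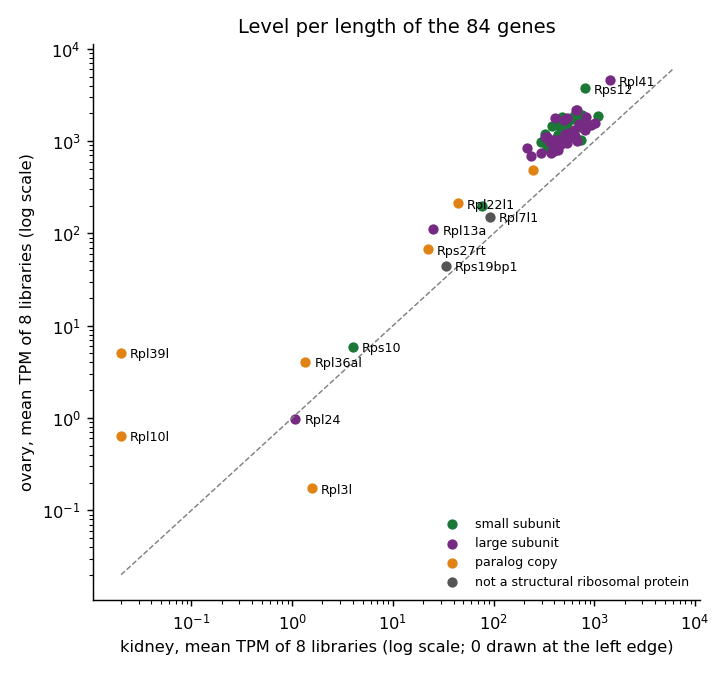
Mean TPM of each of the 84 members in ovary (vertical axis) against kidney (horizontal axis), 8 libraries each, both axes on a log scale; colours give the class and the dashed line marks equal levels. Most structural genes lie together at the upper right above the line, while Rpl3l lies below it and Rpl10l and Rpl39l, drawn at the left edge, had 0 counts in kidney.

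The members held over 2 times as large a share of the counts in ovary as in kidney, in either treatment. In ovary they held 3.61%, 3.42%, 3.19% and 3.58% of assigned pairs in the PT-2385 libraries (replicates 1 to 4), against 3.48%, 3.66%, 3.15% and 3.49% in the vehicle libraries. In kidney they held 1.72%, 1.66%, 1.64% and 1.69% in the PT-2385 libraries, against 1.49%, 1.49%, 1.67% and 1.62% in the vehicle libraries. The organs did not overlap, and within each organ the treatments did. The kidney PT-2385 libraries lay close together at the top, with vehicle replicate 3 among them.

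The mean share with PT-2385 was 3.45 ± 0.196% against 3.44 ± 0.213% with vehicle in ovary (SD, n = 4 each), a ratio of 1.00. In kidney it was 1.68 ± 0.0359% with PT-2385 against 1.57 ± 0.0891% with vehicle, a ratio of 1.07. Between the organs, the ratio of ovary to kidney was 2.06 in PT-2385 libraries and 2.20 in vehicle libraries. With one library left out, the treatment ratio ran from 0.974 to 1.03 in ovary and from 1.05 to 1.09 in kidney, and the organ ratio of the vehicle libraries from 2.15 to 2.26. Summed TPM made the members 9.06% to 10.3% of the ovary transcripts and 3.71% to 4.17% of the kidney transcripts. The ratio of small-subunit to large-subunit TPM was 0.788 to 0.826 in ovary libraries and 0.672 to 0.702 in kidney libraries, again without overlap between organs. Mitochondrially encoded genes held 2.33% to 4.45% of ovary counts and 10.1% to 12.6% of kidney counts, and without them and haemoglobin genes the vehicle ratio was 2.02. Shares of one library's counts have no test here.

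**Figure D2:**
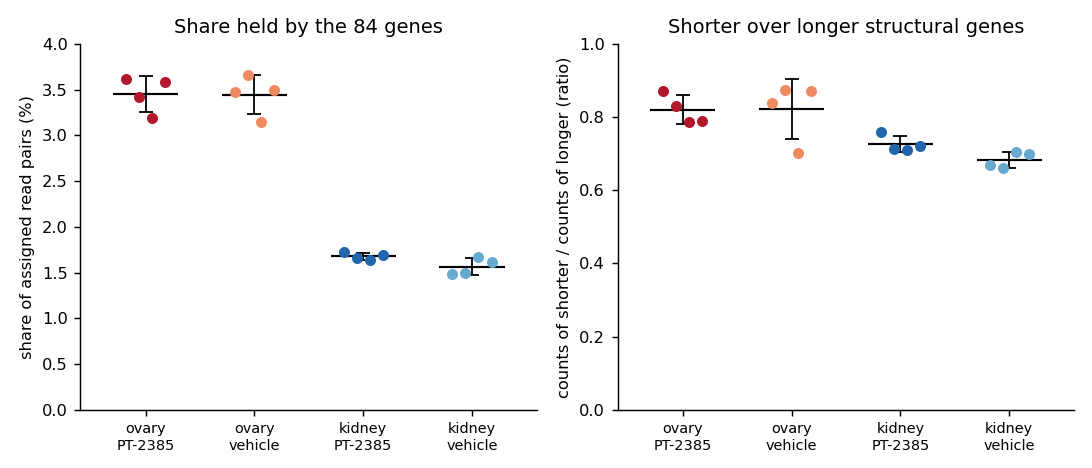
Left, share of assigned read pairs held by the 84 members in each library (points), with the mean (line) and SD (bar) of each group of 4; right, counts of the 39 shorter structural members over counts of the 36 longer ones. The ovary shares lie between 3.15% and 3.66% and the kidney shares between 1.49% and 1.72%, and in the right panel the kidney PT-2385 libraries all lie above the kidney vehicle libraries.

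Set gene by gene, vehicle ovary was above vehicle kidney for nearly the whole module. With edgeR's quasi-likelihood test and Benjamini-Hochberg adjustment over 18923 genes, 77 of 83 members tested were higher in ovary and 2 were lower. Among those called, Rpl39l passed the filter on low counts through ovary alone and Rpl3l through kidney alone. Calls were common in this comparison: 40.9% of all genes tested were called higher and 40.7% lower. The median log2 difference of the members was 0.93, beside 0.00228 over all genes tested, and ran from 0.86 to 0.95 with one library left out. RNA of ovaries came from Monarch columns and that of kidneys from Trizol, so organ and isolation cannot be told apart. In bulk RNA, fewer cells of a type and less RNA per cell cannot be told apart either.

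All 31 small-subunit genes had a positive difference, 29 of them called, with a median of 1.04. Of the 44 large-subunit genes 42 were called higher and 1 lower, with a median of 0.68. Rps12 had 817, 866, 543 and 845 CPM in vehicle ovary, against 200, 208, 245 and 222 CPM in vehicle kidney (CPM scaled over these 8 libraries). The groups lie far apart, with ovary replicate 3 the lowest of its group, and the log2 difference was 1.81 ± 0.138 (SE, edgeR adjusted p 5.18e-08). Rpl13a had 46.2, 51.4, 43.9 and 48.1 CPM in vehicle ovary, against 12.0, 12.1, 17.3 and 13.6 CPM in vehicle kidney. Its log2 difference was 1.79 ± 0.112. Rpl34 and Rpl39, which lies in the exit tunnel, followed with 1.74 ± 0.124 and 1.70 ± 0.113.

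The structural genes with the smallest called difference in ovary's favour were Rpl7a, with a log2 difference of 0.25 ± 0.0858, Rpl10 with 0.28 ± 0.0720 and Rpl28 with 0.32 ± 0.103. Those 3 also have high levels in kidney. Rps2, a protein of the mRNA entry channel, was not called. It had 425, 416, 453 and 416 CPM in vehicle ovary, against 376, 407, 447 and 426 CPM in vehicle kidney, so the groups overlapped, and the log2 difference was 0.05 ± 0.0793. Rpl29 likewise missed the threshold at 0.14 ± 0.0920. Over the structural members the difference ran from 0.05 to 1.81 apart from Rpl24, at -1.03 ± 0.357 from few counts.

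**Figure D3:**
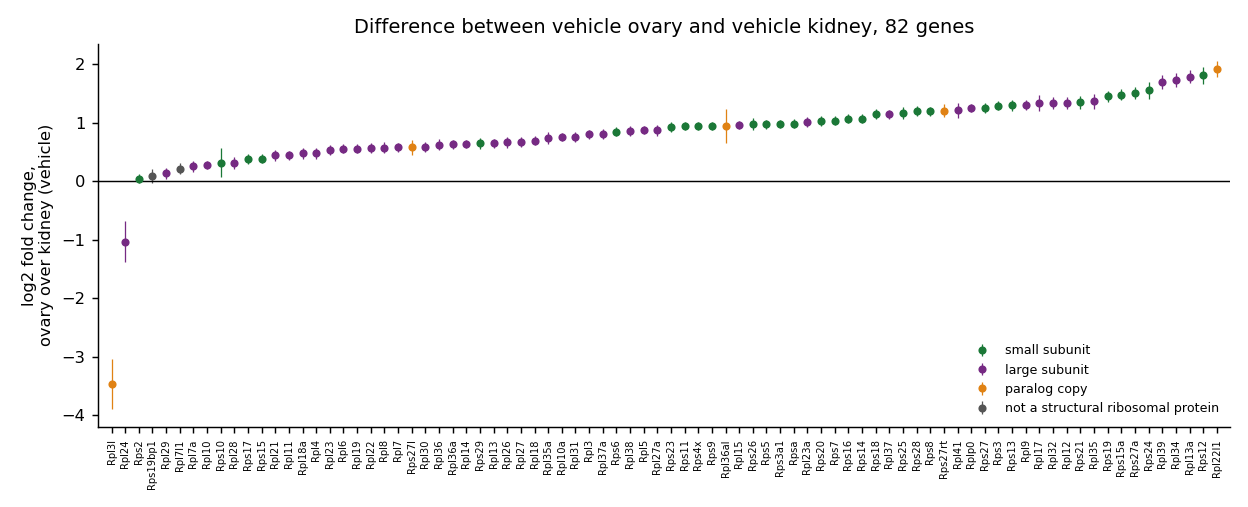
Log2 fold change of vehicle ovary over vehicle kidney for 82 members, sorted, with SE as bars and colours for the class; Rpl39l is left out because it had 0 counts in kidney. Apart from Rpl3l and Rpl24 all points lie above 0, from Rps2 at 0.05 to Rpl22l1 at 1.92.

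The widest differences between the organs were among the paralog copies. Rpl39l and Rpl10l, copies of X-linked Rpl39 and Rpl10 that are best known from male germ cells, had 280 and 68 counts over the 8 ovary libraries and 0 over the 8 kidney libraries. Against a floor of 3 counts over the kidney group, Rpl39l was at least 87.2-fold higher in ovary and Rpl10l at least 21.2-fold higher. Both stayed low in ovary, at 5.12 ± 1.85 and 0.640 ± 0.334 TPM. Oocyte markers summed to 412 to 805 CPM in ovary libraries and 1.74 to 3.11 CPM in kidney libraries, and their part in this difference was not tested.

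Rpl22l1, the copy of Rpl22 known for roles in blood-cell development and splicing, had 49.7, 54.8, 37.3 and 59.7 CPM in vehicle ovary, against 13.8, 11.8, 13.5 and 14.1 CPM in vehicle kidney. No library of one organ came near the other, and its log2 difference of 1.92 ± 0.131 was the largest among members with counts in both organs. Rpl3l, a copy of Rpl3 best known from striated muscle, went the other way. It had 0.121, 0.181, 0.0285 and 0.063 CPM in vehicle ovary, against 0.655, 1.42, 1.04 and 1.38 CPM in vehicle kidney, a log2 difference of -3.47 ± 0.428 (edgeR adjusted p 5.49e-06). Rpl3l entered this test only through the kidney libraries, where it is higher, so the p-value is no separate support. Even in kidney it had 1.56 ± 0.473 TPM. Rps27l, a p53-induced copy of Rps27, was 0.58 ± 0.128 higher in ovary, and Rps27rt 1.21 ± 0.113 higher. Rps27rt shared 89.5% of its 100-base stretches with other genes' transcripts, so its counts cannot be fully told apart from those of Rps27.

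Of the 80 genes of mitochondrial ribosomal proteins tested, 60 were lower in vehicle ovary than in vehicle kidney and 3 higher, with a median log2 difference of -0.57. They therefore went against the cytosolic genes. The PT-2385 libraries gave the same picture for the members: 78 higher and 1 lower in ovary, with 42.5% of all genes called higher and 43.6% lower.

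In ovary, PT-2385 did not move the module beyond the spread between libraries. Of 82 members tested none was called by edgeR's quasi-likelihood test with Benjamini-Hochberg adjustment, and none by DESeq2. Of the members 1 had an unadjusted p under 0.05, a positive one, where 5.74% of all genes tested were positive at that level and 7.45% negative. In the same fit 0.00552% of all 18125 genes tested were called higher and 0.0441% lower, so few calls of any kind were made. The median log2 fold change of the members was 0.05, beside -0.00304 over all genes tested. It was positive for 71 of the 82 members after TMM scaling, beside 49.2% of all genes tested, but for 44 when libraries were scaled by total counts alone, and for 49 of 83 without ovary vehicle replicate 3.

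The member with the largest log2 fold change in ovary was Rps19bp1, also called AROS, which binds Rps19 and the deacetylase SIRT1. It had 19.7, 16.6, 17.6 and 19.5 CPM in PT-2385 ovary, against 15.7, 13.3, 18 and 15.8 CPM in vehicle ovary. The groups overlapped, and its log2 fold change of 0.22 ± 0.101 had an edgeR adjusted p of 0.371. Rpl7l1, a nucleolar relative of Rpl7 that acts in ribosome assembly, had 99.1, 90.8, 104 and 93.8 CPM in PT-2385 ovary, against 83.2, 72.9, 99.5 and 85.5 CPM in vehicle ovary. Here only vehicle replicate 3 reached the PT-2385 libraries. Its log2 fold change was 0.18 ± 0.0868 (edgeR adjusted p 0.391), and without vehicle replicate 3 it was 0.27 with an adjusted p of 0.041. That was the single member called without this library, in a fit where 5.90% of all genes were called.

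At the other end were Rpl36al at -0.09 ± 0.26, Rpl39 at -0.07 ± 0.115 and Rps27rt at -0.06 ± 0.107. Rpl15 was the single member whose groups did not overlap, with 389, 386, 392 and 402 CPM in PT-2385 ovary, against 366, 358, 379 and 374 CPM in vehicle ovary; 3.18% of all genes tested were likewise higher without overlap. The members were steady between libraries, with a median biological coefficient of variation of 8.49% beside 11.3% over all genes tested. Lymphocyte markers summed to 9.31 to 10.01 CPM in PT-2385 ovary, against 10.5 to 12.5 CPM in vehicle ovary, without overlap. Ptprc held the largest part of this sum, at 5.47 CPM with PT-2385 and 6.44 CPM with vehicle. Of the 6 lymphocyte markers tested 5 had a negative change and 1, Cd2, a positive one. Macrophage markers summed to 78.7 to 103 CPM in PT-2385 ovary, against 95.7 to 130 CPM in vehicle ovary, with overlap, and all 7 had a negative change. None of either list was called by edgeR or DESeq2, and their part in the members' values was not tested.

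In kidney, most members lay slightly higher with PT-2385, mostly within the spread between libraries. One member of 82 tested was called, Rps19bp1, where 1.83% of all 17763 genes tested were called higher and 3.7% lower. It had 16.7, 18.1, 16.4 and 17.0 CPM in PT-2385 kidney, against 11.9, 11.1, 14.0 and 14.0 CPM in vehicle kidney. All 4 PT-2385 libraries lay above all 4 vehicle libraries. The log2 fold change was 0.42 ± 0.0831 (edgeR quasi-likelihood test, Benjamini-Hochberg adjusted p 0.0113). With one library left out it stayed called, between 0.36 and 0.46, with adjusted p-values from 0.00827 to 0.045. The gene lies on chromosome 15 (80144816 to 80148516, minus strand, GRCm39), shares no exon bases with another model, and had no 100-base stretch found elsewhere.

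No structural gene was called by edgeR, where 28 had a positive and 1 a negative change at an unadjusted p under 0.05. DESeq2 called 3 higher (Rpl36, Rps15 and Rps28), in a fit where 8.19% of all genes tested were called in either direction. Over all members the median log2 fold change was 0.10, beside 0.00661 over all genes tested. The change was positive for 73 of 82 members (89.0%), where 51.5% of all genes tested were positive, and the members share these 8 libraries, so they are not separate observations. Unadjusted p-values were under 0.05 for 30 members with a positive change and 1 with a negative one, beside 10.7% and 12.4% of all genes tested. With one library left out, the positive ones numbered 7 to 44. Without vehicle replicate 2 they were 7 of 82, where 1359 of 17974 genes tested were positive at that level. Without PT-2385 replicate 1 they were 8 of 82, where 1688 of 18000 genes were. The 44 came without vehicle replicate 3, where 2139 of 18016 genes were. The positive majority held under the other scalings tried: with total counts alone it was 75 of 82.

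Rpl36 had 136, 121, 112 and 129 CPM in PT-2385 kidney, against 96.9, 92.2, 118 and 109 CPM in vehicle kidney. The lowest PT-2385 library lay below vehicle replicate 3. Its log2 fold change was 0.26 ± 0.0791 (edgeR adjusted p 0.0761). Rps28, a small-subunit protein at the mRNA exit, had 106, 104, 94.8 and 103 CPM in PT-2385 kidney, against 80.7, 76.9, 98.2 and 94.6 CPM in vehicle kidney, and a log2 fold change of 0.22 ± 0.0719 (adjusted p 0.0848). Rps15 had 329, 306, 304 and 305 CPM in PT-2385 kidney, against 245, 252, 304 and 287 CPM in vehicle kidney. Its groups came close but did not overlap, at 0.19 ± 0.0631 (adjusted p 0.0839).

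Rpl13a had 17.1, 15.4, 13.7 and 15.4 CPM in PT-2385 kidney, against 11.1, 11.1, 16 and 12.6 CPM in vehicle kidney, and a log2 fold change of 0.28 ± 0.11 (edgeR adjusted p 0.144). Besides Rps19bp1 and Rps15, groups did not overlap for Rps25 and Rpl37, making 4 members higher without overlap, where 5.37% of all genes tested were. Rps25, which internal ribosome entry sites need, had 227, 211, 210 and 207 CPM in PT-2385 kidney, against 176, 178, 206 and 205 CPM in vehicle kidney. Rpl37 had 120, 109, 107 and 109 CPM in PT-2385 kidney, against 92.7, 97.3, 107 and 99.8 CPM in vehicle kidney. In each of these genes vehicle replicates 1 and 2 were the low ones.

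The number of structural genes called turned on kidney vehicle replicate 3, whose members lay highest among the vehicle libraries. Without it 18 members were called higher, where 7.6% of all genes tested were called in either direction. They were Rps19bp1 and 17 structural genes, among them Rpl35 (0.25 ± 0.0551), Rpl13a (0.40 ± 0.0907), Rpl36 (0.32 ± 0.071), Rps15 (0.25 ± 0.0575), Rps28 (0.28 ± 0.0668) and Rps12 (0.19 ± 0.0509). With each of the other kidney libraries left out, 1 to 3 members were called. Nothing in the labels sets replicate 3 apart from the other vehicle kidneys.

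**Figure D4:**
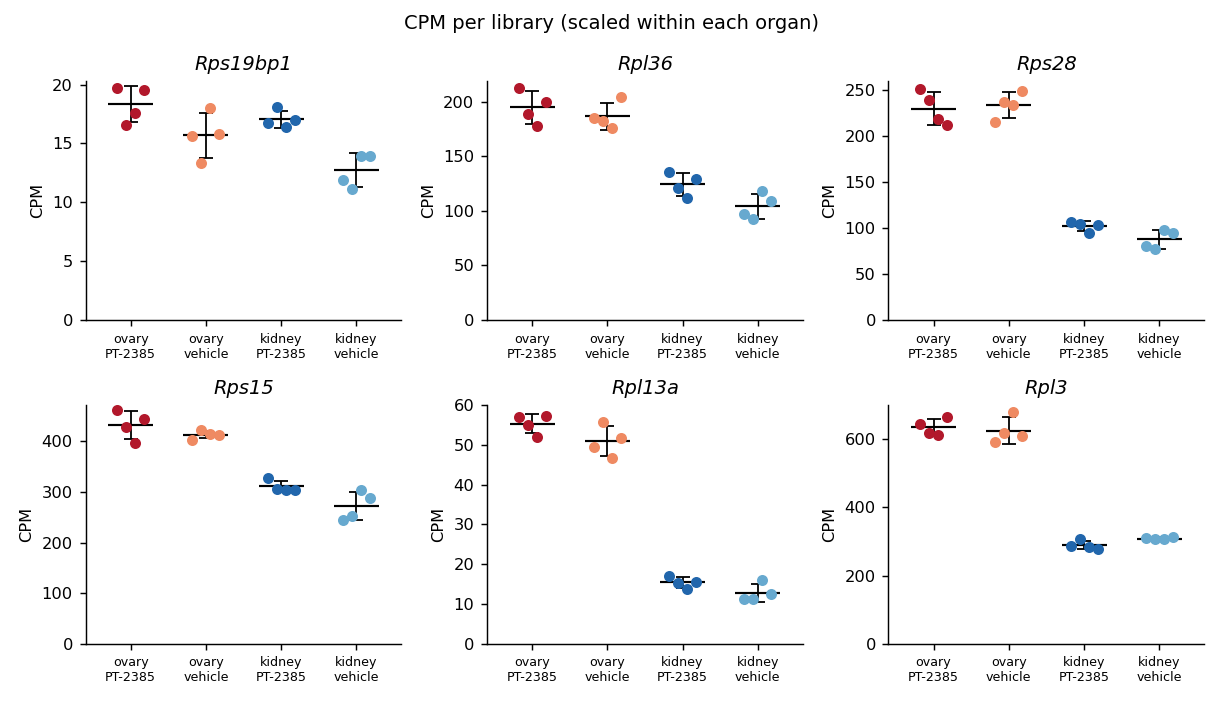
CPM of 6 members in each library (points), with mean (line) and SD (bar) of each group of 4; CPM were scaled within each organ, so heights compare treatments within an organ. In kidney, Rps19bp1 is apart, Rpl36, Rps28 and Rpl13a have vehicle libraries within the range with PT-2385, and Rpl3 lies slightly lower with PT-2385.

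The members that did not lie higher in kidney were mostly those with long coding regions. The lowest of the well-counted genes was Rpl3, the large-subunit protein that reaches to the peptidyl transferase centre, with 288, 306, 284 and 278 CPM in PT-2385 kidney, against 309, 306, 306 and 313 CPM in vehicle kidney. One PT-2385 library matched the vehicle level, and the log2 fold change was -0.09 ± 0.0443 (edgeR adjusted p 0.215). Rps4x, an X-linked small-subunit gene, stood at -0.06 ± 0.0426, and Rpl5, which carries 5S rRNA and binds Mdm2 when ribosome assembly fails, at -0.06 ± 0.0434. Rpl24, at -0.84 ± 0.407, and Rpl36al, at -0.59 ± 0.358, had lower values still but from few counts, and neither was called. Rps10, at 0.39 ± 0.237, was the highest structural gene and likewise rested on few counts.

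Coding length of the structural members ran from 75 to 1257 bases, with a median of 468. All 39 members up to the median had a positive log2 fold change in kidney, with a median of 0.13, and 28 of the 36 longer ones did, with a median of 0.05. Over 73 structural members (without Rpl24 and Rps10, set aside after their counts were seen) the Spearman correlation of kidney log2 fold change with coding length was -0.69. It was -0.65 over all 75, and lay between -0.71 and -0.61 with one kidney library left out. In ovary, over the 73 genes, it was 0.13, and between -0.20 and 0.49 with one ovary library left out. Points of such a correlation share their libraries and their scaling.

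Counts of the shorter structural members over counts of the longer ones were 0.760, 0.713, 0.711 and 0.721 in PT-2385 kidney, against 0.669, 0.661, 0.706 and 0.699 in vehicle kidney. The groups did not overlap, though vehicle replicate 3 came close to the lowest PT-2385 library. In ovary the ratio was 0.873, 0.830, 0.788 and 0.791 with PT-2385, against 0.838, 0.875, 0.701 and 0.871 with vehicle, where vehicle replicate 3 was the lowest library. A fall with length also appeared over all coding genes tested in kidney, members included. There length was that of the principal transcript, not of the coding region. The median log2 fold change was 0.14 for the 131 with a transcript of up to 500 bases and 0.09 for the 958 of 500 to 1000 bases. It was 0.03, -0.00347 and -0.04 in the classes of 1000 to 2000, 2000 to 4000 and over 4000 bases. The median transcript of the structural members was 751 bases, against 2514 bases over all coding genes with a count.

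**Figure D5:**
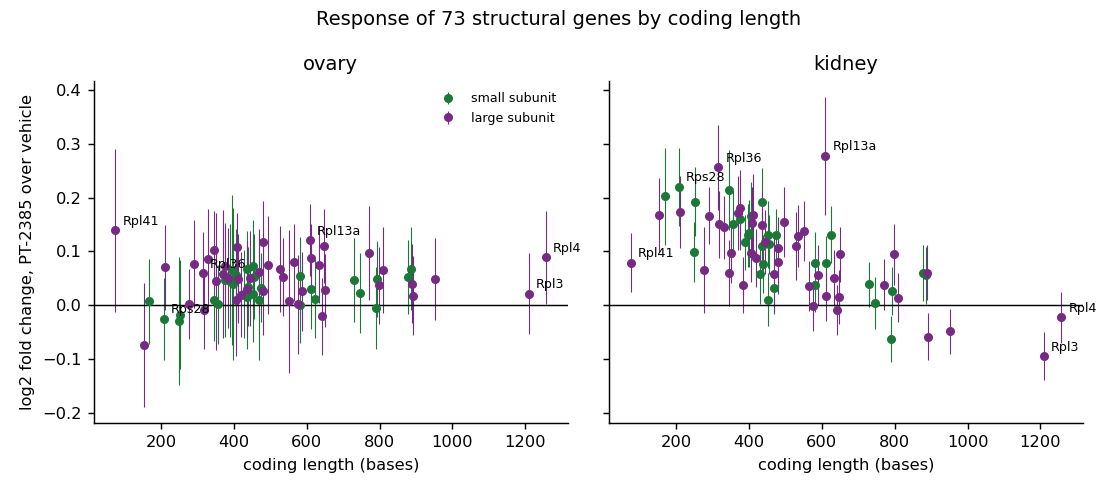
Log2 fold change of PT-2385 over vehicle against coding length for 73 structural members, in ovary (left) and kidney (right), with SE as bars and colours for the subunit. In kidney the points slope from about 0.2 among the shortest genes to below 0 for Rpl3 and Rpl4, and in ovary they show no such slope.

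Other measures also moved with treatment in kidney. Mitochondrially encoded genes held 11.7% to 12.6% of counts in PT-2385 kidney, against 10.1% to 11.7% in vehicle kidney. The 5 nuclear noncoding RNAs summed to 3487 to 3634 CPM with PT-2385, against 3080 to 3359 CPM with vehicle. Of these RNAs 4 had a positive change and 1 a negative one, and edgeR called none, while DESeq2 called Kcnq1ot1 higher. Neat1 averaged 1142 CPM with PT-2385 and 920 CPM with vehicle, and Malat1, the most abundant, 1576 and 1568 CPM. The 7 macrophage markers summed to 100 to 112 CPM with PT-2385, against 117 to 125 CPM with vehicle. Of these markers 6 had a negative change and 1, Csf1r, was called, in 5 of 8 fits with one library left out. Csf1r held the largest part of the sum, at 62.2 CPM with PT-2385 and 75.1 CPM with vehicle. No other marker of this list had an edgeR unadjusted p under 0.05. The part of these shifts in the members' values was not tested.

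The response in ovary minus the response in kidney was tested over all 16 libraries. None of 83 members was called by edgeR's quasi-likelihood test with Benjamini-Hochberg adjustment, where 0.16% of 19977 genes were called higher and 0.03% lower. DESeq2 called none either, and 1 member had an unadjusted p under 0.05, where 5.63% of all genes were lower and 6.37% higher at that level. This was Rps28, at -0.23 on the log2 scale, meaning a lower response in ovary. The median was -0.04, beside -0.00609 over all genes, and 28 of 83 were positive (48.9% of all genes), or 10 of 83 with total counts alone, a scaling that moved the median of all genes to -0.09. The dependence on length in kidney appeared here as a Spearman correlation of 0.64 with coding length over the 73 genes.

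In Rplp1, Rplp2, Rack1 and Fau, which the symbol rule misses, organ differences went the same way as in the members. Rplp1 and Rplp2 form, with Rplp0, the stalk that recruits elongation factors. Rplp1 was at 2439 ± 169 TPM in ovary and 1008 ± 79.1 TPM in kidney, and Rplp2 at 1776 ± 105 and 597 ± 36.4 TPM. Rack1, a scaffold on the head of the small subunit, was at 1240 ± 38.8 TPM in ovary and 406 ± 6.03 TPM in kidney. Fau, made as a fusion with a ubiquitin-like protein, was at 1139 ± 49.9 and 709 ± 33.9 TPM. All 4 were called higher in vehicle ovary than in vehicle kidney, from 0.26 ± 0.0771 for Fau to 1.15 ± 0.076 for Rack1, and none was called for PT-2385 in either organ by edgeR or DESeq2, nor had an unadjusted p under 0.05.

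Genes that build ribosomes included some that were called in kidney. Of 60 ribosome biogenesis genes tested 6 were called higher and none lower, with a median log2 fold change of 0.11, beside 1.83% called higher, 3.7% called lower and a median of 0.00661 over all genes tested. With one library left out, 0 to 11 of them were called, 0 without PT-2385 replicate 4 and 0 without vehicle replicate 2. Bysl, needed for small-subunit maturation, averaged 17.4 ± 1.41 CPM in PT-2385 kidney and 13.6 ± 0.843 CPM in vehicle kidney (0.36 ± 0.0776, edgeR adjusted p 0.0156). Gnl3, the nucleolar GTPase nucleostemin, averaged 30.1 ± 2.94 and 24.1 ± 1.91 CPM in these groups (0.32 ± 0.0776, adjusted p 0.0286). With one library left out, Bysl was called in 6 of 8 fits and Gnl3 in 5. Sbds, which frees new large subunits for use, and Ubtf, which works with RNA polymerase I on ribosomal DNA, were also called, at 0.23 ± 0.0503 and 0.19 ± 0.0509, and in 4 and 2 of these 8 fits.

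In ovary the median log2 fold change of the same 60 genes was 0.20, and 58 of them had a positive change, where 49.2% of all genes tested were positive, but none was called by edgeR or DESeq2. Unadjusted p-values were under 0.05 for 25 of them, all positive, beside 5.74% of all genes higher and 7.45% lower at that level. With one library left out, 56 to 59 of the 60 were positive, with medians from 0.14 to 0.28. The number called turned on ovary vehicle replicate 3. Without it 34 of the 60 were called higher and none lower by edgeR, with a median of 0.28, in a fit where 3.28% of all genes tested were called higher and 2.62% lower. With any other ovary library left out none of the 60 was called, and these fits were chosen after seeing the data. Nolc1, a nucleolar chaperone of small nucleolar ribonucleoproteins, stood at 0.51 ± 0.0767 without vehicle replicate 3 (edgeR adjusted p 0.0125) and Fbl, the methyltransferase fibrillarin, at 0.46 ± 0.071 (adjusted p 0.0125). These are the 2 with the lowest p-values in that fit. Nop56, a core protein of small nucleolar ribonucleoproteins, was at 141 ± 12.1 CPM with PT-2385 and 118 ± 7.83 CPM with vehicle in ovary (edgeR adjusted p 0.207), and without vehicle replicate 3 its log2 fold change was 0.29 ± 0.075 (adjusted p 0.0423).

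Of 38 translation factors tested in kidney 1 was called higher and 4 lower, with a median of -0.00354, beside the 1.83% and 3.7% of all genes tested. Eef1a1, which brings aminoacyl-tRNA to the ribosome and whose mRNA also carries a pyrimidine tract, averaged 2703 ± 85.6 CPM in PT-2385 kidney and 3136 ± 133 CPM in vehicle kidney (-0.21 ± 0.0499, edgeR adjusted p 0.0227). Eef2, the translocase, averaged 1441 ± 40.6 and 1671 ± 115 CPM (-0.21 ± 0.0536, adjusted p 0.0305). Eif2s3x, a subunit of the factor that carries the initiator tRNA, fell by 0.34 on the log2 scale and was called in all 8 fits with one library left out, while Eef1a1 was in 4 and Eef2 in 3. Eif1, which acts in start-codon choice, rose by 0.20 and was called in 2 of the 8. Among 30 genes of growth signalling and control of pyrimidine-tract mRNAs, Mtor averaged 163 ± 8.65 CPM in PT-2385 kidney and 202 ± 19.5 CPM in vehicle kidney (-0.31 ± 0.0633, edgeR adjusted p 0.0123). Rptor, its partner in complex 1, fell by 0.25, and Max, the partner of Myc, rose by 0.21. Mtor and Rptor were each called in 6 of the 8 fits and Max in 3.

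In ovary no gene of these 2 lists was called by edgeR, where 5 translation factors, all higher, and 3 growth genes in each direction had an unadjusted p under 0.05, beside 5.74% of all genes higher and 7.45% lower. Without ovary vehicle replicate 3, 10 of the 38 translation factors and 1 of the 30 growth genes were called higher, and none was called with any other ovary library left out. DESeq2 called Sesn3 lower, a stress-induced regulator of mTOR signalling, which stood at -0.77 ± 0.211 with an edgeR adjusted p of 0.207. In ovary DESeq2 called 1.79% of all genes tested, in either direction. Of 15 genes of ribosome quality control tested there, Eif2ak2, the kinase PKR that shuts down initiation on double-stranded RNA, averaged 29.4 ± 3.37 CPM with PT-2385 and 51.4 ± 5.18 CPM with vehicle (-0.80 ± 0.0938, edgeR adjusted p 0.0223). It was called in 3 of 8 fits with one library left out, with adjusted p-values from 0.00213 to 0.126. DESeq2 also called Ltn1 higher, the ubiquitin ligase that marks chains stalled on large subunits, at 0.41 ± 0.092 with an edgeR adjusted p of 0.114. Without vehicle replicate 3 edgeR called Ltn1, G3bp1 and Trp53 higher and Eif2ak2 lower. Mitochondrial ribosomal protein genes, 80 of them tested in kidney, had a median of 0.07 with 68 positive, where 51.5% of all genes tested were. EdgeR called none of them, with 20 positive and 1 negative at an unadjusted p under 0.05 (10.7% and 12.4% of all genes). DESeq2 called 1, Mrps6, where it called 8.19% of all genes tested.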

How the data were processed

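Bulk RNA of 16 libraries was read as counts of read pairs per gene. Per the file headers, the authors made the deposited counts with featureCounts 2.0.6 over exons by gene (GENCODE vM27, no strand option recorded); per the submitters' processing notes, reads were aligned with STAR to GRCm39. Per the labels' protocols, libraries were made from polyA RNA. Without strand, reads of overlapping genes on opposite strands cannot be told apart. Symbols came from GENCODE M21 by identifier (94.1% of 55359).

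The members and lists were chosen with earlier results of these data known. Each comparison was fitted on all genes passing filterByExpr (count 10, total 15) with edgeR 4.0.16 (R 4.3.3), TMM scaling and the robust quasi-likelihood test. P-values were adjusted by Benjamini-Hochberg over all genes tested and called under 0.05; 82 members passed the filter in each organ. The test was tested on simulated data with known changes, all larger than that of Rps19bp1 in kidney, so recovery of smaller changes was not tested. CPM were TMM-scaled within the comparison, sums of markers unscaled, and TPM computed from counts. Named genes were the called members, the 5 highest and 5 lowest per treatment comparison, the extremes of level and of organ difference, all paralog copies and genes outside the symbol rule, of which 1 is not reported here. Alternatives were other scalings and filters, DESeq2 1.42.0, limma-voom (limma 3.58.1), a block on replicate number and each library left out. No column belonged to another sample. Floors cover counting error only.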

Additional observations from a re-analysis of the deposited data

Results flagged for a closer look

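Among 140 groups of 4 libraries examined for one library far from the rest, 3 were flagged, where chance flags about 1 in 20. In ovary with PT-2385, replicate 4 had 0.219 CPM of Rpl24, against 0.347 to 0.363 CPM in the other 3 libraries, from very few counts. In kidney with PT-2385, replicate 1 had 329 CPM of Rps15, against 304 to 306 CPM in the other 3. The same library had 227 CPM of Rps25, against 207 to 211 CPM.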

How the results depend on the processing

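For PT-2385 in ovary, members called higher numbered 0 to 1 with one library left out, the 1 without vehicle replicate 3, and the median log2 fold change ran from 0.02 to 0.08. In kidney, members called higher numbered 3 with total counts alone, 4 with DESeq2 and 15 without the filter on low counts. Of all genes tested these fits called 5.56%, 8.19% and 5.21% in either direction. With one library left out, members called higher ranged from 1 to 18. The 18 came without vehicle replicate 3 (7.6% of all genes called) and 3 came without vehicle replicate 4 (5.5%). Why the unfiltered fit called more was not tested. Between the vehicle organs, members called lower numbered 0 with the filter of 1 CPM in 4 libraries, which removes Rpl3l and Rpl24, and 1 with total counts alone, without mitochondrial and haemoglobin genes and in the PT-2385 libraries; with one library left out they ranged from 1 to 2. The median organ difference was 1.18 with total counts alone, a scaling that moved the median of all genes to 0.25. The fold of the members' share of vehicle ovary over vehicle kidney was 2.02 without mitochondrial and haemoglobin genes and 2.56 as TPM.

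Signs of log2 fold changes in ovary turned for uncalled members when one library was left out: Rpl39l ranged from -0.16 to 0.35, Rpl22l1 from -0.15 to 0.0651, Rps21 from -0.13 to 0.0614, Rps27rt from -0.14 to 0.00208 and Rpl36al from -0.28 to 0.0204. The values that turned were -0.07 and -0.16 for Rpl39l, 0.03, 0.03, 0.02 and 0.0651 for Rpl22l1, 0.04, 0.0614 and 0.00478 for Rps21, 0.00208 for Rps27rt and 0.0204 for Rpl36al. Of the values of single genes under the alternatives, 635 kept direction and side of the threshold, 11 fell short of it, 10 passed it and these 11 turned sign. Called results between organs that fell short with one library left out were those of Rpl7a, Rpl7l1, Rpl28 and Rpl24. Deviations of libraries with the same replicate number had correlations from -0.24 to 0.33, which cannot settle whether these libraries are paired. With the block, members called numbered 0 in ovary and 1 in kidney. These fits called 2.18% of all genes tested in ovary and 7.17% in kidney, in either direction. Depth limits Rpl3l, Rpl10l, Rpl24, Rpl36al, Rpl39l and Rps10.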
